A study of Mus musculus with 6 samples.

Results

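The elastic fibre genes were followed as 10 rows of the count table, taken by gene name among the 56941 genes listed. They were Eln, Fbn1, Fbn2, Fbln1, Fbln2, Fbln5, Efemp1, Mfap4, Mfap5 and Lox. Of these, 9 had higher counts in the libraries labelled Dab2-cKO than in those labelled WT, and Fbn2 had lower counts. Eln, Fbn1, Fbln2 and Mfap4 rose by close to the same factor, between 3.75-fold and 3.89-fold. Lox rose 3.23-fold, Mfap5 2.47-fold, Fbln5 2.12-fold and Efemp1 1.81-fold, and Fbln1 differed least, at 1.24-fold. The Fbln1 difference turned direction when libraries were scaled by size alone. Markers of dermal fibroblasts and skeletal muscle were also higher in the Dab2-cKO libraries, and the part of such cells in the counts was not tested.

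Elastic fibres give skin its recoil. Tropoelastin, the product of Eln, is laid down on a scaffold of fibrillin microfibrils, held there by fibulins and microfibril-associated glycoproteins, and crosslinked into insoluble elastin by copper-dependent lysyl oxidases. In skin the fibres are made mainly by dermal fibroblasts and smooth muscle cells, while fibrillin microfibrils also run up to the basement membrane below the keratinocytes. The same scaffold binds the latent complexes of TGF-beta and the BMPs.

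The RNA came from FACS sorted hair follicle stem cells (HFSCs, CD34+/α6-integrin+) of female mice at postnatal day 68 (PD68), with 3 biological replicates per genotype. Mice of both genotypes carried the floxed alleles (Dab2 fl/fl) and were dosed with tamoxifen at 75 mg/kg a day for 5 days, and the strain label was B6;129S4-Dab2tm1Cpr/J. The WT mice lacked the Cre transgene, whereas the Dab2-cKO mice carried K14CreER, which is driven by the K14 promoter of basal keratinocytes in epidermis and follicle. How many animals made up a replicate was not stated, so the p-values measure the spread between these libraries.

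The WT libraries held 7040032 to 9518564 counts each and the Dab2-cKO libraries 9374373 to 11696457. To normalize, each count was divided by its library's effective size from edgeR (TMM) and multiplied by the mean size, and a gene was called at an adjusted p under 0.05 in edgeR's quasi-likelihood test with Benjamini-Hochberg adjustment over 32149 genes. The targeted gene went against the labels. By qPCR the paper reported a large reduction of Dab2 mRNA in Dab2-cKO epidermis, and by immunofluorescence its deletion in the follicle. Dab2 had 338, 332 and 309 normalized counts in WT replicates 1 to 3 and 1434.2, 1300.2 and 1389.5 in Dab2-cKO replicates 1 to 3, a log2 fold change of 2.08 with a standard error (SE) of 0.08 and an adjusted p of 3.04e-34. Counts over a whole gene do not show whether the floxed exons were present. The genotype names used for the libraries are therefore those of the labels, and every direction depends on them. Libraries also differed in make-up. The top 100 genes by abundance held between 33.1% and 33.9% of all reads in WT and between 44.5% and 46.6% in Dab2-cKO, and mitochondrial genes held at most 14.4% in WT and at least 19.1% in Dab2-cKO. Their part in the results was not tested.

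All 10 elastic fibre genes passed the filter on low counts. Across all genes tested, 16.8% were called higher and 11.5% were called lower in the Dab2-cKO libraries, against 9 and 1 of the 10. Calls were more frequent among genes with more reads. In a fit of the 14801 genes with a mean count of at least 50, 8523 were called, 52.3% of them higher. Every Dab2-cKO library lay above every WT library for the 9 that were higher, a pattern seen in 20.6% of all genes, and below for Fbn2, a pattern seen in 17.7% of all genes. The median log2 fold change was 1.50 over the 10 genes and -0.02 over all genes tested. An exact 2-sided permutation test on the normalized counts of a single gene gave p = 0.1 for each of the 10, the smallest p that 3 libraries against 3 allow. A scaling by library size alone moved the median of all genes to -0.45 and that of the 10 to 1.07, and Fbln1 was the only one of the 10 whose direction it turned.

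**Figure D1:**
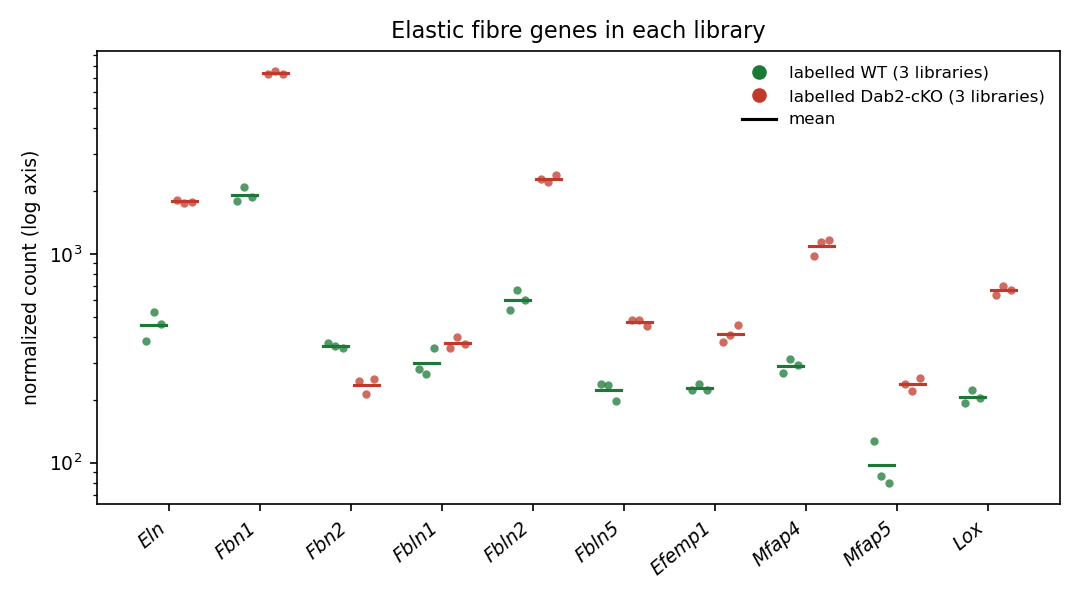
Normalized counts (log axis) of the 10 elastic fibre genes, with 1 point per library and the group mean as a bar. For Eln the WT libraries lie between 381 and 528 and the Dab2-cKO libraries between 1754.7 and 1816.6, while for Fbn2 the Dab2-cKO points lie lowest.

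Elastin itself was read from Eln (ENSMUSG00000029675, GRCm39 chr5:134731445-134776322, minus strand). Its normalized counts were 381, 528 and 462 in the WT libraries, which rest on 342, 585 and 541 reads. In the Dab2-cKO libraries they were 1816.6, 1754.7 and 1782.4, on 1905, 1525 and 1615 reads. The groups were far apart, and the WT libraries spread more than the Dab2-cKO libraries. The means were 457.1 ± 73.8 and 1784.6 ± 31.0 (SD, n = 3), and Eln rose by 1.96 on the log2 scale (SE 0.08, adjusted p = 1.72e-32, edgeR). Of its exon bases, 5.12% overlap a lncRNA gene on the opposite strand, Gm30003, which had 2 to 13 reads per library.

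The fibrillins form the microfibril, and its 2 genes moved in opposite directions. Fbn1 (ENSMUSG00000027204, chr2:125142514-125349913, minus strand) encodes the main fibrillin of adult tissue. It had 1785.9, 2090.9 and 1878.0 normalized counts in the WT libraries and 7288.4, 7507.8 and 7284.3 in the Dab2-cKO libraries. Both groups were narrow, at 1918.3 ± 156.4 and 7360.2 ± 127.9 (SD, n = 3), and the rise was 1.94 on the log2 scale (SE 0.07, adjusted p = 2.51e-35, edgeR). A lncRNA gene on the opposite strand, Gm9913, overlaps 20.1% of the exon bases of Fbn1 and had 5 to 11 reads per library. Fbn2 (ENSMUSG00000024598, chr18:58141695-58343645, minus strand) encodes the fibrillin best known from development. Its normalized counts were 374, 360.2 and 354 in the WT libraries and 246, 213 and 251 in the Dab2-cKO libraries. All 3 Dab2-cKO libraries lay below the WT libraries, and Fbn2 fell by 0.61 on the log2 scale (SE 0.11, adjusted p = 2.04e-06, edgeR). Within each library there were 4.77, 5.80 and 5.31 Fbn1 reads per Fbn2 read in WT and 29.6, 35.3 and 29.1 in Dab2-cKO. This ratio, which no scaling between libraries can change, was higher by 2.56 on the log2 scale, with no overlap. It had p = 0.1 in an exact 2-sided permutation test, the smallest p this design allows. Of the 20 within-library ratios computed, 17 did not overlap, and all were chosen after the values were seen. Per kb of exon, Fbn2 stood at 10.9 to 12.8 in the Dab2-cKO libraries. Receptor genes used below as a background yardstick had a 95th percentile of 11.7 there. The part of background reads in the Fbn2 fall and in this ratio was not tested.

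The microfibril-associated genes both rose. Mfap4 (ENSMUSG00000042436, chr11:61376212-61379727, plus strand) encodes a fibrinogen-related glycoprotein that binds fibrillin and tropoelastin. It had 267, 312 and 293 normalized counts in the WT libraries and 982, 1143.7 and 1162.2 in the Dab2-cKO libraries. The rise was 1.91 on the log2 scale (SE 0.09, adjusted p = 1.04e-30, edgeR), close to those of Eln and Fbn1. Mapk7, on the opposite strand, overlaps 3.83% of its exon bases. Mfap5 (ENSMUSG00000030116, chr6:122470878-122508875, plus strand) encodes MAGP-2, a small glycoprotein of the microfibril. Its normalized counts were 127, 85.8 and 79.5 in WT and 237, 219.8 and 254 in Dab2-cKO, so that WT replicate 1 stood above the other WT libraries. Mfap5 rose by 1.30 on the log2 scale (SE 0.15, adjusted p = 9.10e-12, edgeR). Each Mfap5 read came with 2.11, 3.64 and 3.69 Mfap4 reads in the WT libraries and with 4.14, 5.20 and 4.58 in the Dab2-cKO libraries. The log2 difference was 0.60 with no overlap (exact 2-sided permutation test, p = 0.1).

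Among the fibulins, secreted glycoproteins with calcium-binding EGF repeats, the 4 genes changed by unequal amounts. Fbln2 (ENSMUSG00000064080, chr6:91189437-91249522, plus strand) encodes a fibulin of basement membranes and elastic fibres. Its normalized counts were 540.0, 672 and 599.8 in the WT libraries and 2290.6, 2204.6 and 2386.2 in the Dab2-cKO libraries, a rise of 1.92 on the log2 scale (SE 0.08, adjusted p = 9.56e-34, edgeR). Fbln5 (ENSMUSG00000021186, chr12:101712556-101785429, minus strand), whose product brings tropoelastin and lysyl oxidases to the microfibril, had 237, 237 and 197 normalized counts in WT and 483, 481 and 453 in Dab2-cKO. It rose by 1.08 (SE 0.10, adjusted p = 1.83e-14, edgeR). Efemp1 (ENSMUSG00000020467, chr11:28803150-28876825, plus strand), which encodes fibulin-3, had 222, 239 and 224 normalized counts in WT and 379.5, 411 and 455 in Dab2-cKO, a rise of 0.86 (SE 0.11, adjusted p = 1.61e-10, edgeR). In each of these genes the lowest Dab2-cKO library lay well above the highest WT library.

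Fbln1 (ENSMUSG00000006369, chr15:85090150-85170737, plus strand), which encodes a fibulin found in basement membranes and in the elastin core, was the exception. It had 279, 266 and 354.6 normalized counts in the WT libraries and 354.7, 402 and 369 in the Dab2-cKO libraries, so that WT replicate 3 and Dab2-cKO replicate 1 met. The log2 fold change was 0.32 (SE 0.11, adjusted p = 0.0163, edgeR), and the call was lost in DESeq2 (adjusted p = 0.0588) and without WT replicate 1, WT replicate 2 or Dab2-cKO replicate 2 (adjusted p = 0.0523, 0.109 and 0.127). Library size alone gave -0.11 (adjusted p = 0.380). The 4 fibulins therefore kept no fixed proportion. There were 1.93, 2.52 and 1.69 Fbln2 reads per Fbln1 read in the WT libraries and 6.46, 5.49 and 6.47 in the Dab2-cKO libraries. Relative to Fbln2, the log2 difference of Dab2-cKO from WT was -0.85 for Fbln5 and -1.07 for Efemp1, again with no overlap. The exact 2-sided permutation test gave p = 0.1 for each of these ratios.

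Promoter sequences are shown for 2 genes that rose together, Fbn1 and Fbln2, and for Fbln1, which changed least. RefSeq windows (GRCm38.p6) were matched for 5 of the 10 genes, Fbn1, Fbln1, Fbln2, Fbln5 and Efemp1, with 2 windows each for Fbln1 and Fbln5. Of the overlapping Fbln1 windows, the upstream one is printed. Each sequence is the 250 bases before an annotated start, 5′ to 3′ on the gene's strand. Capitals mark a match on either strand to any of TATAAA (core promoter box), CAGACA (Smad), TGANTCA (AP-1), ACATTCC (TEAD) or CCCGCCC (Sp1).
Fbn1, chr2:125506439-125506688, minus strand: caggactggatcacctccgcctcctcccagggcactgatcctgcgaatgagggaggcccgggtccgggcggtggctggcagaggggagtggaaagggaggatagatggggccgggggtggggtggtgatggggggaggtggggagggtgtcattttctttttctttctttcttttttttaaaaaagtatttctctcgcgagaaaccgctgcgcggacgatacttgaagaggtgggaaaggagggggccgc
Fbln2, chr6:91212514-91212763, plus strand: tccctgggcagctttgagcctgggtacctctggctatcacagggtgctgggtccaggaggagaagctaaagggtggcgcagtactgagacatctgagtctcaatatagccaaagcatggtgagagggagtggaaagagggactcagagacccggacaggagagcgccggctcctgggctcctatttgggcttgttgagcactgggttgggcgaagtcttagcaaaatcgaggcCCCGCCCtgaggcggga
Fbln1, chr15:85205699-85205948, plus strand: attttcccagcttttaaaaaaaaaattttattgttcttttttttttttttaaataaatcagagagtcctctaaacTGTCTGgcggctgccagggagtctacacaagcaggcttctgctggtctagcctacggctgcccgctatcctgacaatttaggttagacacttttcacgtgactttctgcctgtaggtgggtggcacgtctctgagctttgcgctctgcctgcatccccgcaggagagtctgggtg
The Fbn1 window held none of the 5 motifs. The Fbln2 window held 1 Sp1 motif, starting 17 bases before the start site, and this motif is in 23.4% of the 32851 mouse promoter windows of the same length. The printed Fbln1 window held 1 Smad motif, read on the other strand and starting 175 bases before the start site, and this motif is in 17.1% of all windows. The other Fbln1 window, chr15:85205758-85206007, held the same Smad match, 234 bases before its own start, and 1 Sp1 motif starting 12 bases before it. The other motifs are in 12.4% (TATAAA), 6.75% (TGANTCA) and 3.25% (ACATTCC) of all windows. The G and C content was 59.2% for Fbn1, 58.8% for Fbln2, and 46.4% and 62.4% for the printed and the other Fbln1 window, beside a median of 52.4% over all windows. Which start was used in these cells is not known from the counts, so the Fbln1 windows set no contrast with Fbln2. These matches describe letters in the windows and no binding was measured.

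Crosslinking was represented by Lox (ENSMUSG00000024529, chr18:52649136-52663110, minus strand), the lysyl oxidase that oxidizes lysines of tropoelastin and collagen. Its normalized counts were 194, 224 and 204 in the WT libraries and 639, 699.6 and 674 in the Dab2-cKO libraries. The groups were clearly apart at 207 ± 15.3 and 671 ± 30.5 (SD, n = 3), and Lox rose by 1.69 on the log2 scale (SE 0.10, adjusted p = 5.40e-25, edgeR). The estimate for the enzyme gene was below that for its substrate gene. Within a library there were 0.509, 0.424 and 0.442 Lox reads per Eln read in WT and 0.352, 0.399 and 0.378 in Dab2-cKO. The log2 difference was -0.28 with no overlap (exact 2-sided permutation test, p = 0.1).

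**Figure D2:**
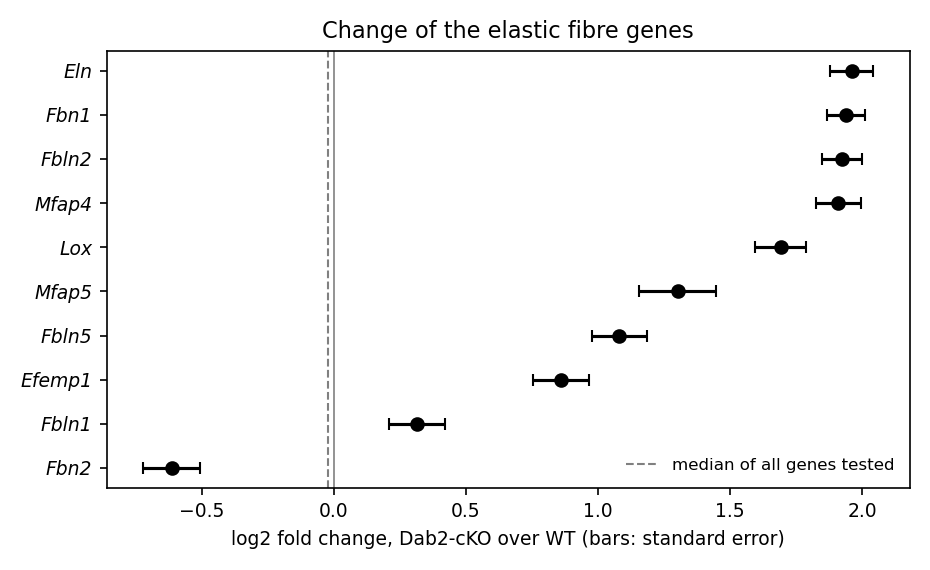
Log2 fold change (Dab2-cKO over WT) of each elastic fibre gene, with the estimate as a point, 1 SE as a bar and the median of all genes as a dashed line. Eln, Fbn1, Fbln2 and Mfap4 lie between 1.91 and 1.96, and Fbn2 lies at -0.61.

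Levels of different genes were compared per kb of annotated exon (GENCODE, union of exons). In the WT libraries the mean level was 158 normalized counts per kb for Fbn1, 124 for Mfap4, 86.0 for Fbln2, 65.5 for Fbln1, 55.3 for Eln and 50.4 for Efemp1. Below these came Lox at 42.0, Fbln5 at 30.7, Fbn2 at 18.5 and Mfap5 at 14.1. The ranges over libraries overlapped for the neighbours Fbln2 and Fbln1, Fbln1 and Eln, Eln and Efemp1, and Fbn2 and Mfap5. Within each of the 3 WT libraries, however, Fbln2 stood above Fbln1 and Fbn2 above Mfap5, whereas the order of Fbln1 and Eln and of Eln and Efemp1 changed from library to library. In the Dab2-cKO libraries the order was Fbn1 at 607, Mfap4 at 466, Fbln2 at 327, Eln at 216, Lox at 136, Efemp1 at 91.6, Fbln1 at 81.9, Fbln5 at 64.7, Mfap5 at 34.3 and Fbn2 at 12.1, and only the ranges of Efemp1 and Fbln1 overlapped, with Efemp1 above Fbln1 within each of the 3 libraries. As a yardstick for background, 1439 olfactory, vomeronasal and trace amine receptor genes, not known to be used in skin, had a 95th percentile of 12.3 per kb in WT and 11.7 in Dab2-cKO. Fbn2 in the Dab2-cKO libraries and Mfap5 in the WT libraries were close to that level, and the other genes stood clear of it in both groups. The lengths join the exons of all annotated transcripts, 6916 bases for Mfap5 and 19598 for Fbn2. A level per kb comes out too low where the transcripts in use are shorter. Which transcripts were in use was not tested, and the order of genes and their distance from background depend on it.

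**Figure D3:**
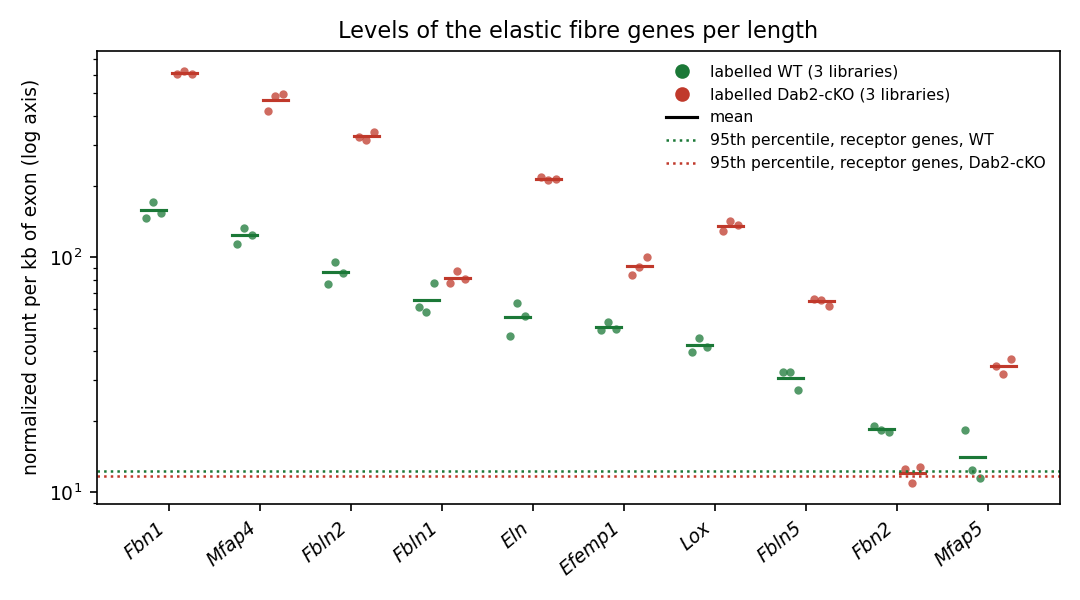
Normalized counts per kb of exon (log axis) for the 10 elastic fibre genes, with points for libraries, bars for group means and dotted lines for the 95th percentile of the receptor genes in each group. Fbn1 is highest in both groups, at means of 158 and 607, and Fbn2 is the lowest in the Dab2-cKO libraries at 12.1.

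The make-up of the elastic fibre transcripts therefore differed between the groups. Of the summed level per kb of the 10 genes, Fbn1 took a median of 24.4% in the WT libraries and 30.0% in the Dab2-cKO libraries, Mfap4 19.3% and 23.6%, Fbln2 13.2% and 16.3%, and Eln 8.67% and 10.4%. The share of Fbln1 was 10.1% and 3.93%, that of Efemp1 7.72% and 4.40%, that of Fbln5 4.74% and 3.20%, and that of Fbn2 2.79% and 0.615%. Lox held a like share in both, at 6.52% and 6.58%. The size of each share depends on the annotated exon lengths. Counts of Fbn1 and Eln kept step with each other, with 4.69, 3.96 and 4.06 Fbn1 reads per Eln read in WT and 4.01, 4.28 and 4.09 in Dab2-cKO. These ratios overlapped (exact permutation test, 2-sided, p = 0.9). With 3 libraries against 3 this test cannot show that they were equal.

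Cell type markers were read beside these genes, because bulk RNA cannot tell a change in the number of cells of a type from a change in RNA per cell. Markers of HFSCs and basal keratinocytes were present in both groups, but did not move as one. In normalized counts per kb, Krt15 stood at 1986 in WT and 3548 in Dab2-cKO and Krt14 at 3403 and 6122. Of 11 HFSC bulge markers 7 were called higher and 3 lower, beside 16.8% and 11.5% of all genes tested. The 3 that fell were the transcription factor genes Sox9, by 1.45 on the log2 scale (SE 0.08), and Lhx2, by 1.43 (SE 0.12), and the R-spondin receptor gene Lgr5, by 1.32 (SE 0.11). With library size alone as the scaling, Cd34, Nfatc1, Col17a1, Krt15 and Postn were called higher, at 1.37, 0.89, 0.59, 0.41 and 0.23. Sox9, Lhx2 and Lgr5 were called lower with it, at -1.87, -1.85 and -1.75. By immunofluorescence at PD68, the paper reported reduced CD34 and K15 and more cells stained for Sox9 in the Dab2-cKO bulge. Of 12 dermal fibroblast markers all 12 were called higher in the Dab2-cKO libraries, and their summed normalized counts ran from 103561 to 125628 in WT and from 358698 to 378874 in Dab2-cKO, with no marker at 0 in every library. Col1a1, their most abundant member per kb, stood at 7018 in WT and 20700 in Dab2-cKO, above Krt14 in both groups. Smooth muscle and arrector pili markers were called higher in 6 and lower in 1 of 10, with sums of 4381 to 5068 and 15140 to 15453. In a skeletal muscle list that was added after the data were seen, 10 of 10 were called higher, with sums of 60127 to 70297 and 289881 to 293390. The part of these cells in the elastic fibre counts was not tested.

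Read against the 12 fibroblast markers, the elastic fibre genes went in both directions. Per 1000 reads of these markers Eln had 3.68, 4.20 and 4.03 reads in the WT libraries and 5.06, 4.63 and 4.85 in the Dab2-cKO libraries, higher by 0.29 on the log2 scale. Fbn1, Fbln2 and Mfap4 were higher by 0.26, 0.24 and 0.22, each with all Dab2-cKO libraries above all WT libraries. The 12 markers rose by between 1.08 and 2.19 on the log2 scale, a range that holds the rises of Eln, Fbn1, Fbln2 and Mfap4. The direction against a single marker therefore depends on which one is taken. Lox was at 1.87, 1.78 and 1.78 in WT and 1.78, 1.85 and 1.84 in Dab2-cKO, with overlap and a difference of 0.01, and Mfap5 also overlapped, at -0.38. Fbn2, Fbln1, Efemp1 and Fbln5 were lower in all Dab2-cKO libraries, at differences of -2.31, -1.36, -0.83 and -0.61. The marker sum itself was 103561 to 125628 normalized counts in WT and 358698 to 378874 in Dab2-cKO. A gene that kept its normalized count would therefore also be lower on this ratio, and the median log2 fold change of all genes was -0.02. The share of all genes lower on this ratio was not computed. Across all 20 within-library ratios computed, 17 did not overlap, each with p = 0.1 in the exact 2-sided permutation test, the smallest p this design allows, and an adjusted p of 0.118. Of single genes, 20.6% had every Dab2-cKO library above every WT library and 17.7% had every one below. No such share was computed for ratios of other genes, and 10 of the 20 ratios share the fibroblast marker sum. The count of 17 therefore does not set these genes apart. The ratios were chosen after the values were seen.

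**Figure D4:**
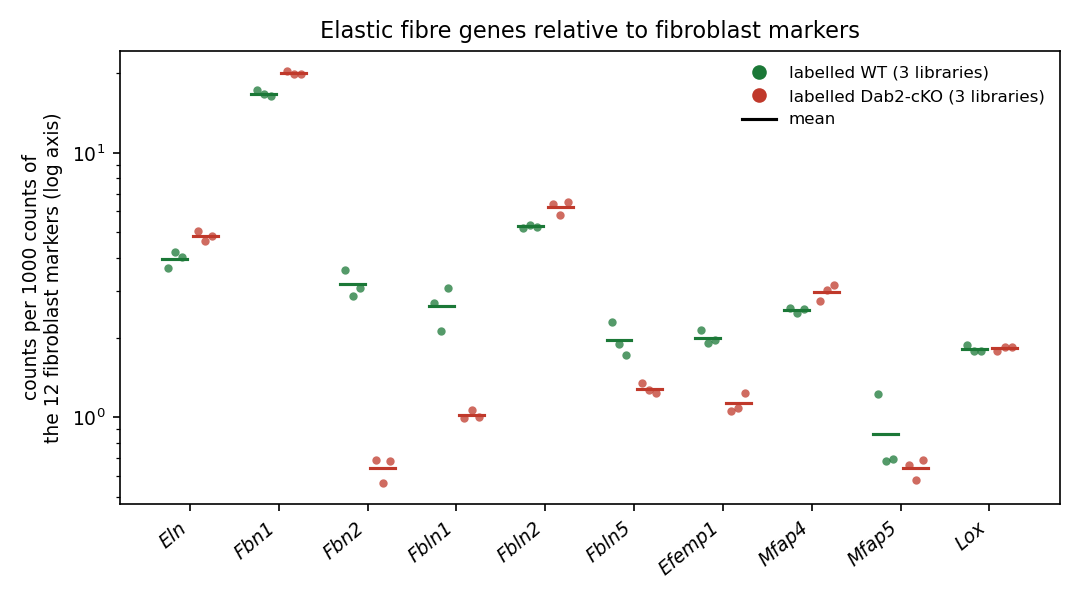
Reads of each elastic fibre gene per 1000 reads of 12 dermal fibroblast markers (log axis), with 1 point per library and the group mean as a bar. The Eln points lie at 3.68 to 4.20 in WT and 4.63 to 5.06 in Dab2-cKO, the Lox points overlap, and the Fbn2 points lie far lower in Dab2-cKO.

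Beyond the 10, a list of 62 other genes of the pathway was counted, of which 60 were tested. In the Dab2-cKO libraries 36 were called higher and 7 lower, beside 16.8% and 11.5% of all genes, and the median log2 fold change was 0.48. With library size alone as the scaling, 23 were called higher and 14 lower, beside 2686 and 11168 of all 32149 genes tested. The other lysyl oxidases rose in 2 of 4. Loxl1, the oxidase that fibulin-5 tethers, had 92.4, 122 and 156 normalized counts in WT and 508, 660.5 and 524 in Dab2-cKO, a rise of 2.17 on the log2 scale (SE 0.12), and Loxl2 rose by 1.30 (SE 0.08). Of 3 genes of copper supply 2 were called lower. Atp7a, the copper pump that loads lysyl oxidases, fell by 0.65 (SE 0.08) and Slc31a1, the copper importer, fell by 0.53 (SE 0.10).

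The microfibril and latent TGF-beta binding proteins were called higher in 4 of 5 genes. Mfap2, which encodes MAGP-1 and is also 1 of the 12 fibroblast markers, rose by 1.68 (SE 0.13), Ltbp1 by 1.60 (SE 0.08) and Ltbp4, a partner of fibulin-5, by 0.59 (SE 0.07), whereas Ltbp3 fell by 0.61 (SE 0.08). Of the 5 emilins and multimerins, glycoproteins at the surface of elastin and vessels, 4 rose, among them Mmrn2 by 1.77 (SE 0.11), Mmrn1 by 1.62 (SE 0.10) and Emilin1 by 0.98 (SE 0.14). Mmrn1 and Mmrn2 are known from endothelium, whose 9 markers were all called higher, with sums of 1526 to 1742 normalized counts in WT and 5514 to 5671 in Dab2-cKO. In the wider fibulin family Hmcn2 rose by 1.19 (SE 0.08) and Efemp2, which encodes fibulin-4, by 0.64 (SE 0.16), Hmcn1 fell by 0.48 (SE 0.08) and Fbln7 was not called. With library size alone Efemp2 was not called (0.21, adjusted p = 0.285).

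The fibrillin-binding ADAMTS-like and processing genes were called higher in 6 of 10 in edgeR, by small amounts, and lower in 0 (1 at an unadjusted p under 0.05, and 0 in DESeq2). Adamtsl2 rose by 0.72 (SE 0.14), Adamtsl4 by 0.69 (SE 0.12) and Adamtsl5 by 0.57 (SE 0.13). These calls turned on the scaling, since with library size alone edgeR called 0 of them higher (2 at an unadjusted p under 0.05) and 3 lower. That scaling called 2686 of all 32149 genes tested higher and 11168 lower. Among 11 cell receptor genes 6 were called higher and 1 lower. Itgb1 rose by 0.83 (SE 0.07), Itga5 by 0.71 (SE 0.11) and Itgb5 by 0.68 (SE 0.08), and Itgb6, an epithelial integrin that frees TGF-beta, fell by 0.79 (SE 0.12). With library size alone 4 of these receptors were called higher and 3 lower.

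Proteases able to cut elastin were called higher in 6 of 10 tested genes. Ctss, cathepsin S of myeloid cells, had 118, 125 and 122 normalized counts in WT and 1223.5, 1263.4 and 1219.6 in Dab2-cKO, a rise of 3.34 on the log2 scale (SE 0.09), larger than that of any of the 10 elastic fibre genes. Immune markers were called higher in 9 of 10, with sums of 1219 to 1230.4 in WT and 4923 to 5039 in Dab2-cKO. Ctsk rose by 2.09 (SE 0.09) and Mmp2 by 1.81 (SE 0.08), while Ctsl fell by 0.39 (SE 0.07). With library size alone 4 of the proteases were called higher and 2 lower, beside 2686 and 11168 of all 32149 genes tested. Of 8 partner matrix genes 6 rose and 1 fell. Tnxb, whose product tenascin-X links collagen and elastic fibres, had 1212.5, 1452.6 and 1324.3 normalized counts in WT and 5270.6, 5282.5 and 5565.9 in Dab2-cKO, a rise of 2.01 (SE 0.07). The small proteoglycan genes Dcn and Bgn rose by 1.58 (SE 0.07) and 1.03 (SE 0.07), and Vcan, the large proteoglycan that binds fibrillin, fell by 0.27 (SE 0.07). The part of immune cells and fibroblasts in these counts was not tested.

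**Figure D5:**
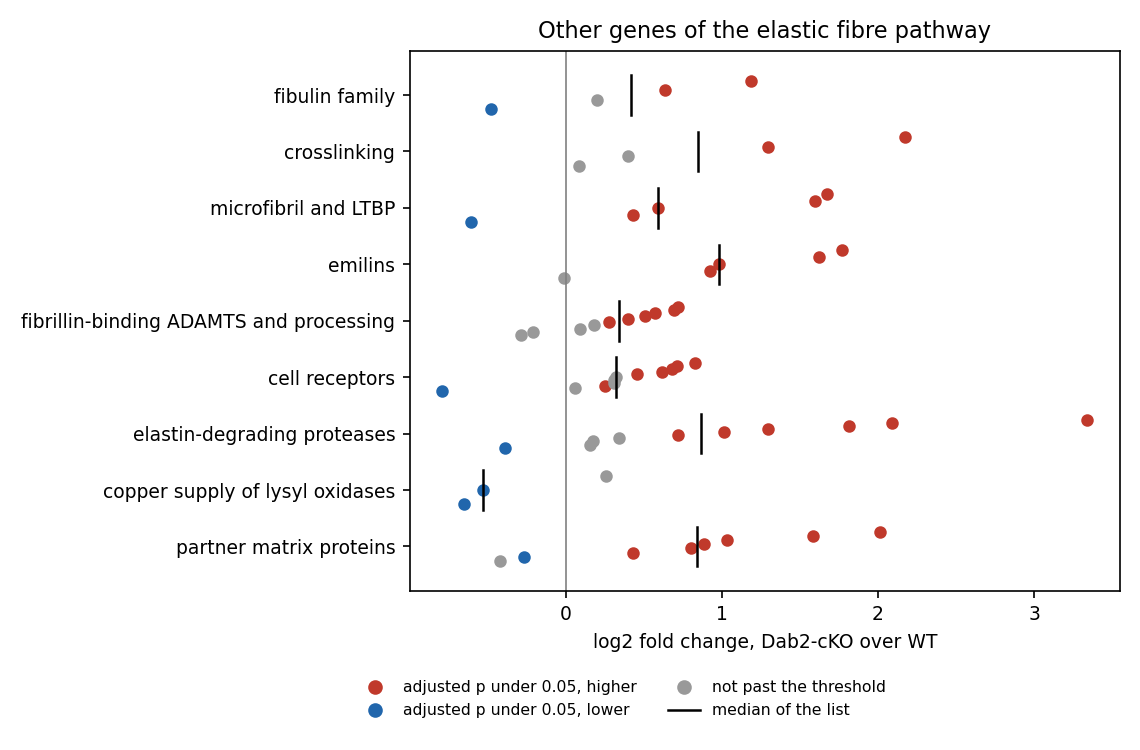
Log2 fold change (Dab2-cKO over WT) of 60 other elastic fibre pathway genes, 1 point per gene by role, with the list median as a line. Red points (36) were called higher, blue points (7) lower, and the copper supply list is the only one with its median below 0.

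The genes whose levels ran most like Eln over the 6 libraries, by Pearson's r of log2 CPM among 10845 genes averaging 100 or more normalized counts, were Rarres1, Krt79, Them5, Selenow and Smarca2. For Fbn1 they were Myh4, Dusp1, Klhl41, Apobec2 and Gm15772. All of these had an r that rounds to 1.00, and 31.7% of the genes ranked had an r above 0.9 with Eln and 31.2% with Fbn1, so a high r set few genes apart. Between the elastic fibre genes themselves the median r was 0.93 over the 6 libraries and 0.05 once the group means were taken out. These values describe 6 libraries that share a split into 2 groups.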

How the data were processed

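Total RNA (5 ng) of sorted HFSCs was made into libraries by the authors with a SMARTer Stranded pico kit and sequenced as paired ends. The submitters' processing notes name fastp 0.23.4, HISAT2 2.2.1, SAMtools 1.6, featureCounts 2.0.6 and GRCm39. The authors deposited raw counts per gene, the only values used. The strand setting, the treatment of multimapping reads and the annotation release are not given in the sources used here. A second deposited table holds the authors' own DESeq2 comparison (normalized counts, fold changes and p-values) and was not used. Count columns named FL-FL were assigned to Dab2-cKO through the series title.

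Counts were filtered with filterByExpr, TMM scaled and compared by the quasi-likelihood test of edgeR 4.0.16 (robust, R 4.3.3), for genotype alone over all 6 libraries, after the code had been tested on simulated data. SE was taken as the fold change over the square root of F. The total was 7040032 to 11696457 counts, so a count of 0 allows up to 2.56e-05% to 4.26e-05% of a library, taking 3 counts as the limit. This limit covers counting error only, whereas the SDs and SEs also hold the spread between libraries. Genes were matched by ID to GENCODE (GRCm39), and promoters by symbol to RefSeq. The members and gene lists were chosen with earlier results of these data known. Named were the 10 genes, Dab2, up to 3 rises and 3 falls of each other list with at least 100 normalized counts and no overlap, abundant markers, and the 5 genes most like Eln and Fbn1. Fbln7, Sox9, Lhx2, Lgr5, Cd34, Nfatc1, Col17a1, Postn and the ratios fall outside that rule and were chosen after the values were seen, as was the skeletal muscle list. Of the 62 other pathway genes, 1 (Adamtsl6, an older name of Thsd4) has no row of its own and 1 (Elane) did not pass the filter. Alternatives were DESeq2 1.42.0, upper-quartile scaling, library size only, TMM without mitochondrial and the 100 most abundant genes, no filter, a mean count of at least 50, no robust estimates, a replicate block and each library left out in turn.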

Additional observations from a re-analysis of the deposited data

How the results depend on the processing

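Of 140 fold changes of the 10 elastic fibre genes under 14 alternatives, 134 kept their direction and their side of the threshold, and 9 of the genes did so under every alternative. The exception was Fbln1. Its log2 fold change was -0.11 (adjusted p = 0.380) with library size only, 0.17 (adjusted p = 0.216) with upper-quartile scaling, 0.32 (adjusted p = 0.0588) with DESeq2, and 0.24 to 0.47 with each library left out in turn. The cause was not tested. With library size only, 13854 genes were called, 2686 higher and 11168 lower, and the other pathway genes numbered 23 higher and 14 lower. Upper-quartile scaling called 5561 genes lower. Of all calls, 59.4% were higher with TMM, 43.5% with upper-quartile scaling and 19.4% with library size only. Leaving out 1 library in turn gave 8 to 9 elastic fibre genes higher and 1 lower, 34 to 38 other pathway genes higher and 7 to 8 lower, 7996 to 8546 genes called in all, and 2.03 to 2.11 for Dab2. Deviations from the group means had an r of 0.008 to 0.023 between libraries that share a replicate number. Between libraries with different numbers r was lower, at -0.018 to 0.005. All these values are small, and they do not settle whether the numbers name pairs. The replicate block called 8967 genes, with 9 elastic fibre genes higher and 1 lower. At 79.5 to 127 normalized counts, Mfap5 in the WT libraries had the fewest reads and the largest SE of the 10.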

Other observations

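Markers of other cell types moved in both directions between the libraries. Of all genes tested, 16.8% were called higher and 11.5% lower. In the fit of the 14801 genes with a mean count of at least 50, 8523 were called, 52.3% of them higher. Melanocyte markers were called lower in the Dab2-cKO libraries in 8 of 8 genes, with summed normalized counts of 3702 to 4066 in WT and 1283 to 1313 in Dab2-cKO. Dermal papilla markers, of the mesenchyme at the base of the follicle, were called lower in 5 and higher in 2 of 9, with sums of 1173 to 1231 and 809 to 872, against the direction of the dermal fibroblast list. Adipocyte markers were called higher in 5 and lower in 1 of 6, with sums of 3409 to 3783 and 8446 to 8632. Schwann cell and nerve markers were called higher in 3 of 7, with sums of 605 to 675 and 1309 to 1461.

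Epithelial lists moved in both directions. HFSC bulge markers were called higher in 7 and lower in 3 of 11, with sums of 9820.4 to 11285 in WT and 17189.9 to 17487 in Dab2-cKO, and basal keratinocyte markers were called higher in 5 and lower in 3 of 8, with sums of 17856 to 20025 and 27493 to 28407. With library size alone as the scaling, 5 bulge markers were called higher and 3 lower, and 3 basal keratinocyte markers higher and 3 lower. Of all 32149 genes tested, that scaling called 2686 higher and 11168 lower. The cause of these differences was not tested.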
